A study of Mus musculus with 4 samples.

Results

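A set of 39 interferon-induced genes was followed in colon CD4 T cells, out of 25724 gene symbols in the count table. The set was given as a list of names, chosen with earlier results of these data known, and all 39 names were found in the table. By family and textbook inducer, 25 were described as a type I list and 14 as an interferon gamma list. The cells came from 4 samples labelled Btheta_colon, all in 1 group of male B6 mice aged 6 weeks; the labels say nothing more of Btheta, and they name no mutant allele, control or treatment arm. The CD45+ TCRb+ CD4+ cells of the colon lamina propria, a connective tissue of the gut wall, were sorted and profiled by inDrops, which barcodes the RNA of single cells in droplets. The 4 samples share 1 table whose barcodes name no sample, so the table was handled as 1 sample, no test between samples was possible and no p-value is given. All comparisons are therefore between kinds of cell within this table.

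Type I interferons signal through the receptor chains IFNAR1 and IFNAR2 to a complex with STAT2 and IRF9, which binds interferon-stimulated response elements and switches on antiviral genes such as the Ifit, Isg and Oas families. Interferon gamma, made by Th1 cells and natural killer cells, signals through IFNGR1 and IFNGR2 to gamma-activated sites in DNA, and it strongly induces guanylate-binding proteins (Gbp) and immunity-related GTPases (Irgm, Igtp, Iigp1), which act on the membranes around intracellular microbes. Many members respond to both kinds of interferon, so the lists are groups of genes and not readings of either cytokine.

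Promoter sequence was searched for the kinds of DNA element named above. The members were chosen as interferon-induced genes, so their shares of such elements are not independent of that choice. RefSeq promoters (GRCm38.p6, 250 bases before to 50 after the gene start) were found for 29 of the 39 members. Each was searched on both strands for GAAANNGAAA, the core of an interferon-stimulated response element, and for TTCNNNGAA, the core of a gamma-activated site; matches could overlap each other. The first occurred in 17 of 29 members (58.6%) against 3.99% of 27025 genes with a promoter in the table (3.44% of 32851 promoters), and the second in 11 of 29 (37.9%) against 9.55% of genes (8.30% of promoters). By list, GAAANNGAAA was found in 10 of 19 type I members and 7 of 10 interferon gamma members, and TTCNNNGAA in 5 of 19 and 6 of 10. A total of 6 members held both, namely Bst2, Oas1a, Gbp5, Gbp7, Igtp and Irgm2, against 0.540% of genes. A match describes these letters in this window and is no evidence of binding. The stretches below are shown because the genes carry results given further on and because they show the motifs singly, in runs and side by side; capitals mark every base of a match on either strand, and all are written 5′ to 3′ on the strand of the gene. Isg15 lies at chr4:156200855-156200916, minus strand; Bst2 at chr8:71537567-71537628, minus strand; Gbp3 at chr3:142559979-142560034, plus strand; and Gbp7 at chr3:142530210-142530312, plus strand. Igtp lies at chr11:58199491-58199551, plus strand, Irgm2 at chr11:58214882-58214942, plus strand, and Irgm1 at chr11:48871421-48871470, minus strand.
Isg15: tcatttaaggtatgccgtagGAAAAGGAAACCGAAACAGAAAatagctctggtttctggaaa
Bst2: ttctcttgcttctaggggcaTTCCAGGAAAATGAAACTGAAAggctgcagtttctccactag
Gbp3: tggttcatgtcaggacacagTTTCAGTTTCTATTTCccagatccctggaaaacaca
Gbp7: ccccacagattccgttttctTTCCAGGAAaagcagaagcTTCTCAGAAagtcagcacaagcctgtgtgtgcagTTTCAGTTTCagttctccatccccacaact
Igtp: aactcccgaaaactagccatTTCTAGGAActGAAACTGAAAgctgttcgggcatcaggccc
Irgm2: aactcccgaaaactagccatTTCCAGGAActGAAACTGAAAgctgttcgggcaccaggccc
Irgm1: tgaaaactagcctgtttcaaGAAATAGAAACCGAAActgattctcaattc

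Isg15 showed 3 overlapping matches of GAAANNGAAA in a row, whereas Bst2, Igtp and Irgm2 had a TTCNNNGAA match beside GAAANNGAAA. The 61-base stretches of the neighbouring GTPase genes Igtp and Irgm2 were identical at 59 positions and differed at 2. Over 250 bases before the start, these genes were identical in 68.1% of 285 aligned columns.

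Most members were sparse at this depth. A barcode entered as a cell if it had 500 counts or more, 200 detected genes or more and under 20% mitochondrial counts, which left 1050 cells with 1549040 counts in all (501 to 13023 per cell, median 1235.5). No barcode name occurred more than 1 time. Levels are in CPM, a gene's summed count scaled to the total of its group of cells, so they compare groups for a gene and are not used to rank genes. Intervals are exact 95% intervals and cover counting error only; in the whole set of cells 3 counts equal 1.94 CPM. Of the 39 members, 1 had no count, 7 had 1 to 9 counts, 10 had 10 to 49 and 21 had 50 or more.

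Among type I members, Ly6e, a surface protein of the Ly6 family, was found in 744 cells (70.9%) with 2103 of the list's 4770 counts, and Samhd1, a nucleotide phosphohydrolase that restricts retroviruses, in 380 cells (36.2%) with 697 counts. Next came Ifi27l2a in 180 cells, Ifi203 (a PYHIN family gene) in 174, and the Schlafen genes Slfn5, Slfn2 and Slfn1, which are linked to T cell quiescence and growth control, in 163, 115 and 75. The RNA exonuclease Isg20, the nucleic acid sensor Zbp1, Trim30a and the virion tether Bst2 were found in 90, 87, 72 and 63 cells, and the ubiquitin-like modifier Isg15 in 39. The classical antiviral effectors were close to absent. The RNA-binding proteins Ifit1, Ifit2 and Ifit3 had 4, 10 and 4 counts, and the antiviral enzyme Rsad2 had 5. The ISG15 protease Usp18 had 3 in 1 cell, the RNA-sensing synthetase Oas1a had 1, and the dynamin-like GTPase Mx1 had 0. For Mx1 the exact upper limit was 2.38 CPM.

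The interferon gamma list held 1236 counts. Its members were spread over more genes: Igtp, Gbp7 and Ifi47, all interferon-inducible GTPases, were found in 142, 138 and 131 cells with 236, 221 and 221 counts. Gbp4 was found in 74 cells, the transcription factor Irf1 in 63, Irgm1 in 61, Gbp3 in 58 and Gbp2 in 37. Irf8, Gbp5, Gbp6, Gbp9 and Irgm2 were found in 18 to 28 cells each, and Iigp1 in 4. Gene bodies of 13 of the 39 members overlap another gene of the table in GENCODE vM21, and the sources used here do not say how reads were counted or whether strand was used. Reads of Igtp and Irgm2, of Gbp4 and Gbp9, and of Ifi203 and Mndal may therefore have been shared between them, and values of these genes are uncertain to that degree.

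Cells were divided into 5 gates that do not overlap. Foxp3 is the lineage factor of regulatory T cells, Gata3 is a factor of type 2 and of tissue regulatory T cells, and Tbx21, Ifng and Nkg7 mark Th1 and cytotoxic cells. At least 1 count of Foxp3 was found in 332 cells, of which 201 had Gata3 (median 1415 counts per cell) and 131 had none (1165). Of 718 cells without Foxp3, 119 had a count of Tbx21, Ifng or Nkg7 and are called the Th1 gate (1179), 318 had Gata3 but none of these (1340.5), and 281 had none of the 5 genes and are called ungated (1135). Nkg7 was the most frequent Th1 gate gene, found in 124 of all kept cells, against 40 for Tbx21 and 30 for Ifng. A gate without a count of a gene also holds cells in which its transcript was missed. Of the 119 Th1-gated cells, 53 carried Gata3. A Treg marker of Ikzf2, Ctla4 or Il2ra was found in 39.5% of Th1-gated, 64.8% of Foxp3- Gata3+ and 46.3% of ungated cells. T cell markers (Cd3d, Cd3e, Cd3g, Cd4, Trac, Trbc1, Trbc2) were found in 94.0% to 99.2% of cells in every gate.

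Transcripts of other cell types were concentrated in the ungated cells. Epithelial markers summed to 5888 CPM there, from 18 cells with up to 933 counts in 1 of them, against 12.1 to 54.5 CPM in the other gates; 6 of the 8 listed markers are in the table and all 6 had counts there. Stromal markers stood at 1456 CPM against 59.9 to 253, with Th1-gated cells the upper end, and myeloid markers at 229 CPM against 0 to 106. At least 3 counts of epithelial, stromal, myeloid or B cell markers were found in 24 barcodes, 15 of them ungated, and Scrublet called 9 doublets; both kinds were kept, and left out as alternatives. Their part in the results below was not tested beyond those alternatives.

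Summed over each list, the gates lay within a narrow range. Values by gate are given in the order Foxp3+ Gata3+, Foxp3+ Gata3-, Th1 gate, Foxp3- Gata3+ and ungated, here and below. The summed type I level was 3303, 3444, 2976, 2993 and 2870 CPM. The intervals of both Foxp3+ gates (3110 to 3505 and 3181 to 3723) lay above that of ungated cells (2705 to 3041). Without barcodes with markers of other cell types ungated cells stood at 3172 CPM (2984 to 3368), and these intervals overlapped. Without the abundant Ly6e and Samhd1 the type I sum was 1229, 1133, 1629, 1269 and 1224 CPM. The Th1-gated interval of 1441 to 1835 CPM then lay above those of the other gates, the nearest being 1170 to 1375 in Foxp3- Gata3+ cells. It no longer did when the barcode with most counts of the list was left out of each gate (Th1 gate 1498 CPM, 1317 to 1697; Foxp3- Gata3+ 1226 CPM, 1128 to 1331). It also did not when barcodes with markers of other cell types were left out, since ungated cells then stood at 1377 CPM (1254 to 1508) and Th1-gated cells at 1623 (1433 to 1831).

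The interferon gamma sum was 858, 932, 896, 662 and 806 CPM. Foxp3- Gata3+ cells were the low gate, with an interval of 591 to 740 CPM below those of both Foxp3+ gates and of the Th1 gate, whose lowest bound was 758, and overlapping the 720 to 900 of ungated cells. Without the barcode with most counts in each gate, the value was 650 CPM (579 to 727) against 765 to 847 elsewhere, and only the interval of the Foxp3+ Gata3+ cells (728 to 928) stayed apart from it. Without barcodes with markers of other cell types, Foxp3- Gata3+ cells stood at 676 CPM (603 to 755). The intervals of all other gates then lay above theirs, the nearest being 757 to 960 in Foxp3+ Gata3+ cells. Ungated cells were then at 908 CPM (809 to 1016). The narrower type I families of Ifit, Isg and Oas genes summed to 84.5, 120, 246, 172 and 134 CPM, with the Th1 gate at 177 to 334 and Foxp3+ Gata3+ cells at 56.2 to 122. Isg20 and Isg15 held 122 and 67 of the 225 counts of these type I families, so the sums rest mainly on these genes. The narrower interferon gamma families of Gbp, Irgm and Igtp summed to 598, 736, 571, 482 and 572 CPM.

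**Figure D1:**
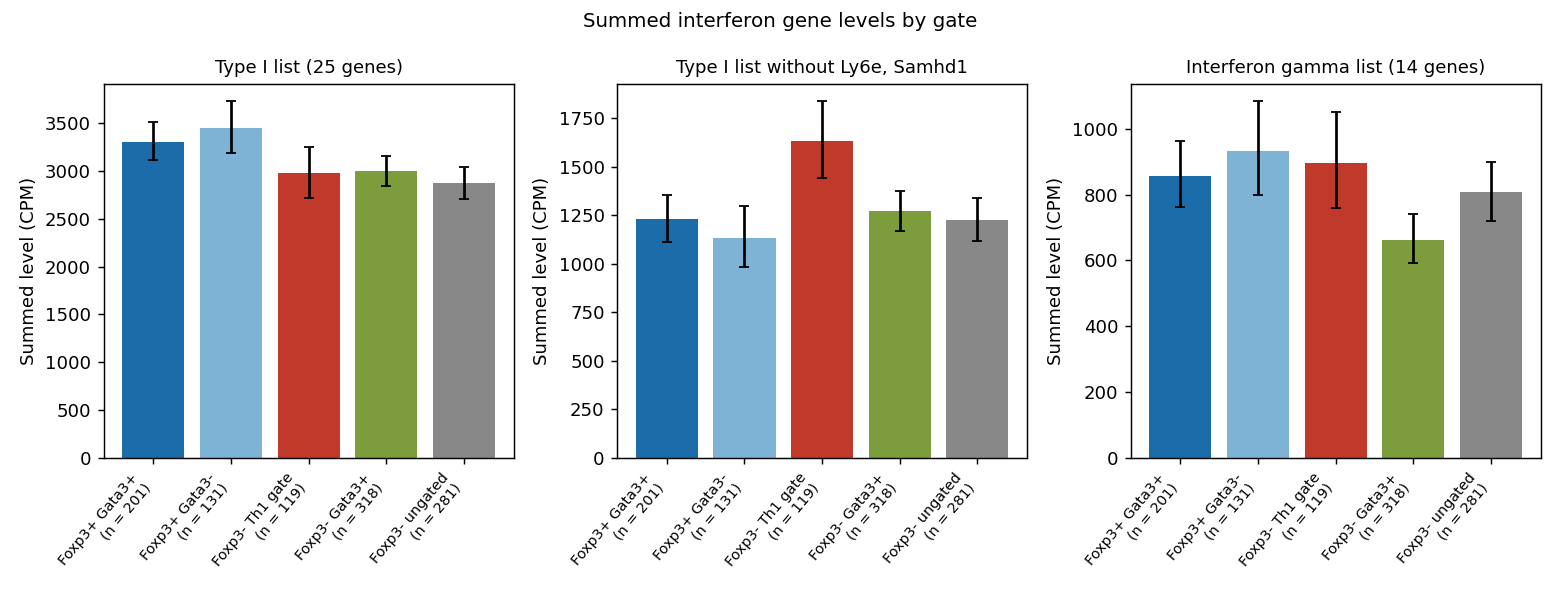
Summed level in CPM (vertical axes, starting at 0) of the type I list, of that list without Ly6e and Samhd1, and of the interferon gamma list in the 5 gates, with n cells; bars are sums over all cells of a gate and whiskers are exact 95% Poisson intervals. The Th1 gate stands at 1629 CPM in the middle panel and Foxp3- Gata3+ cells at 662 CPM in the right panel.

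Interferon gene expression was thin in nearly all cells and dense in very few. A cell carried a median of 2 type I members, and 966 of 1050 cells had at least 1, 386 at least 3 and 73 at least 5. Without the abundant Ly6e and Samhd1 the median was 1, and these counts were 692, 134 and 20 cells. Interferon gamma members were found in 543 cells, at least 3 of them in 66 cells, and at most 7 in any cell. Of Th1-gated cells, 85.7% had a type I member (78.1 to 91.5), the lowest share of the 5 gates. At least 5 were found in 12.6% of them (7.23 to 19.9), the highest share. Both intervals overlap those of several other gates. The low share with at least 1 member depended on Ly6e and Samhd1. Without these genes it was 71.6%, 62.6%, 68.9%, 66.4% and 61.6% by gate, and all these intervals overlapped. The share with at least 5 was still highest in the Th1 gate, with an interval that overlaps those of the other gates. With Ly6e and Samhd1 kept in, every cell was also thinned to 500 counts. At least 3 type I members were then found in 11.4%, 5.34%, 11.8%, 8.49% and 8.19% of cells, and all these intervals overlapped.

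**Figure D2:**
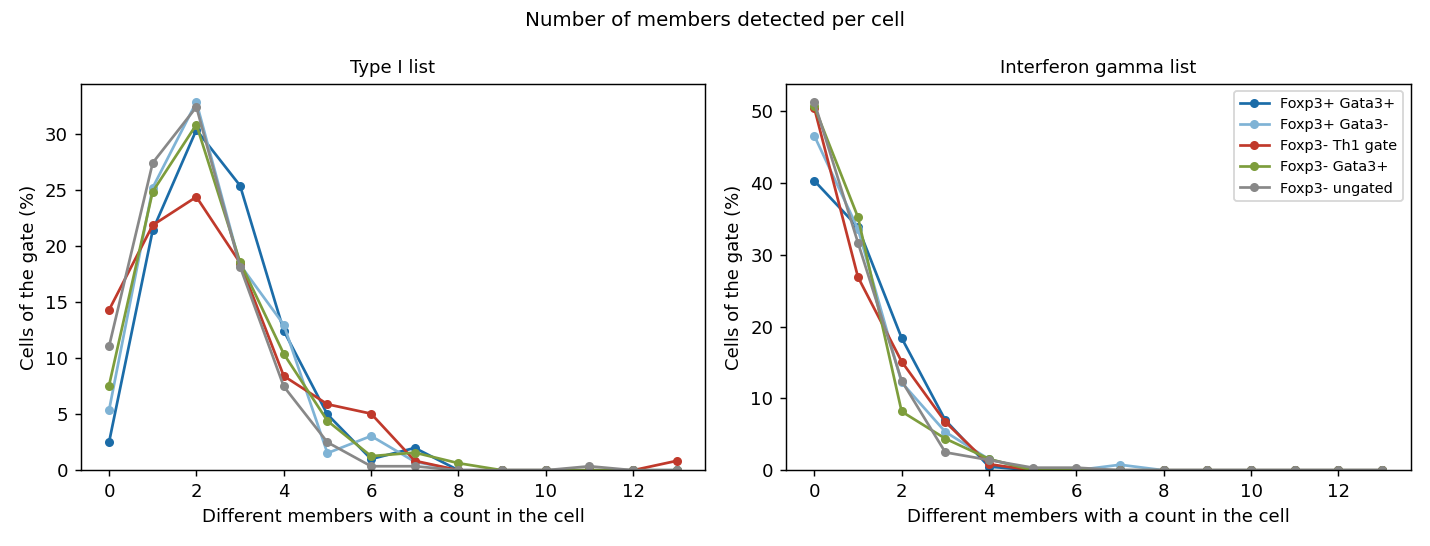
Percent of the cells of each gate (vertical axis) that carry a given number of different members (horizontal axis), for type I members on the left and interferon gamma members on the right, without thinning. Most cells carry 1 to 4 type I members, and the points at 11 and 13 are 1 cell each.

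Beyond 8 type I members there were only 2 cells. A Th1-gated cell with 2109 counts held 13 of them in 30 counts, including Isg15 (3), Usp18 (3), Ifit1 (2), Zbp1 (3), Slfn1 (3) and Ifi203 (4), together with Ifi47 (5), 4 counts of Ifng and 1 of Tbx21. An ungated cell with 1784 counts held 11 in 27 counts, among them Isg15 (8), Ly6e (6) and Bst2 (2), with Igtp (3). Both had T cell marker counts (10 and 18) and none of the epithelial, stromal, myeloid or B cell markers. They were singled out after their values were seen.

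The scarce antiviral transcripts Ifit1, Ifit2, Ifit3, Usp18, Rsad2 and Oas1a, grouped after their low counts were seen, were found in 21 cells (2.0%, 1.24 to 3.04). By gate, these were 2 of 201, 0 of 131 (exact interval up to 2.78%), 7 of 119 (5.88%, 2.40 to 11.7), 6 of 318 and 6 of 281 cells. The share in the Th1 gate was the highest, with an interval that overlaps those of the other gates. In the 21 cells Isg15 stood at 600 CPM (24 counts in 4 cells) against 28.5 CPM in the 1029 others, Zbp1 at 325 (13 counts in 5 cells) against 103, and Bst2 at 200 (8 counts in 4 cells) against 63.6, all 3 with intervals apart. Of the other 4 genes compared, Ifi27l2a (225 against 188 CPM), Irf7 (2 counts in 2 cells against 27 in 22) and Samhd1 (450 against 450) had intervals that overlapped. Ly6e was lower at 951 CPM (673 to 1305) against 1368 (1310 to 1429).

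In Foxp3+ cells the level of Ifi27l2a was higher and that of Slfn1 lower than in Foxp3- cells, both beyond counting error. Both stayed past 1.5-fold under all 9 alternatives, with intervals that left out 0 in the 8 that give one. Among 9335 genes with at least 10 counts, 15.2% were at least 1.5-fold higher in Foxp3+ cells and 20.9% at least 1.5-fold lower. Of 18 type I members that reached 10 counts, 3 were higher and 6 lower by that measure (median log2 ratio -0.45, against -0.04 over all genes), and of 13 interferon gamma members 3 were higher and 1 lower (median 0.07). The gamma share lower is under that of all genes and the type I share lower is above it; with 1 sample neither was tested.

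Ifi27l2a, a small interferon-induced membrane protein, stood at 269, 283, 90.2, 157 and 156 CPM in the 5 gates. Both Foxp3+ gates were high and the Th1 gate low. Over Foxp3+ against Foxp3- cells it was 274 against 146 CPM (log2 ratio 0.91, 0.57 to 1.25), and it was found in 24.1% against 13.9% of cells, or 10.5% against 5.93% after thinning to 500 counts.

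Slfn1, whose family restrains T cell proliferation, had the reverse order at 45.3, 10.9, 144, 57.3 and 131 CPM, highest in the Th1 gate and in ungated cells. It was 33.0 CPM in Foxp3+ against 99.6 in Foxp3- cells (log2 ratio -1.59, -2.43 to -0.84), and counting each cell at most 1 gave -1.26 (-2.25 to -0.39). Irf7, the factor that amplifies type I interferon responses, had 3 counts in 3 Foxp3+ cells and 26 counts in 21 Foxp3- cells (log2 ratio -2.11, -4.48 to -0.40).

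Ly6e was 1618, 1586, 1058, 1297 and 1232 CPM by gate, with both Foxp3+ gates high, and Samhd1 was 456, 725, 289, 427 and 413 CPM. Their Foxp3 differences were precise but small, with log2 ratios of 0.38 (0.25 to 0.51) for Ly6e and 0.47 (0.24 to 0.69) for Samhd1, both under 1.5-fold. Counting each cell at most 1 gave 0.23 (0.01 to 0.45) and 0.15 (-0.17 to 0.46). Isg15 was 27.2, 16.3, 78.2, 53.1 and 42.8 CPM, and Bst2 was 51.3, 32.7, 66.1, 50.9 and 116 CPM. Trim30a, a restrictor of Toll-like receptor signalling, was 124, 76.3, 66.1, 80.7 and 37.8 CPM. These 3 were past 1.5-fold between Foxp3+ and Foxp3- cells in summed counts (Isg15 -1.19, Bst2 -0.81, Trim30a 0.79), but with each cell counted at most 1 they were -0.75, -0.33 and 0.25, and every interval then included 0. Without its barcode with most counts Isg15 was -0.87 and Bst2 -0.52.

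Of the interferon gamma members, Gbp3 was 60.4, 98.1, 36.1, 25.5 and 63.0 CPM by gate, or 73.8 against 41.6 CPM in Foxp3+ against Foxp3- cells (log2 ratio 0.83, 0.16 to 1.49), and 0.99 (0.20 to 1.78) with each cell counted at most 1. Igtp was 178, 240, 96.2, 125 and 146 CPM, with a Foxp3 ratio of 0.64 (0.25 to 1.02) that was 0.38 without its barcode with most counts. Gbp5, a guanylate-binding protein tied to inflammasome assembly, had 14 counts in Foxp3+ and 12 in Foxp3- cells (1.23, 0.01 to 2.47). Irgm2 had 3 and 21 counts (-1.80, -4.19 to -0.06), so that Igtp and the overlapping Irgm2 lay on opposite sides. With each cell counted at most 1, Igtp was 0.24 (-0.28 to 0.75), Gbp5 1.11 (-0.14 to 2.37) and Irgm2 -2.01 (-5.17 to 0.08), so all 3 intervals included 0.

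Gbp7, Ifi47 and Irf1 had Foxp3 ratios under 1.5-fold, though the interval of Irf1 reached beyond it. Gbp7 was 139, 163, 162, 121 and 154 CPM by gate (Foxp3 log2 ratio 0.07, -0.35 to 0.49), with all 5 values between 121 and 163. Irf1, a transcription factor induced early by interferon gamma, was 57.4, 59.9, 42.1, 53.1 and 45.4 CPM (0.27, -0.43 to 0.95). Gbp4 was 60.4, 59.9, 84.2, 46.7 and 78.1 CPM (-0.10, -0.77 to 0.53), and Gbp2 was 18.1, 38.1, 66.1, 34.0 and 30.2 CPM from 52 counts in all.

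Further type I members showed little order across the gates. Ifi203 was 160, 163, 174, 208 and 197 CPM, Slfn5 was 175, 120, 120, 161 and 166 CPM, and Irf9, the DNA-binding part of the type I complex, was 99.6, 120, 156, 108 and 93.2 CPM. Their Foxp3 log2 ratios were -0.30, -0.01 and -0.04, and all 3 intervals included 0.

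**Figure D3:**
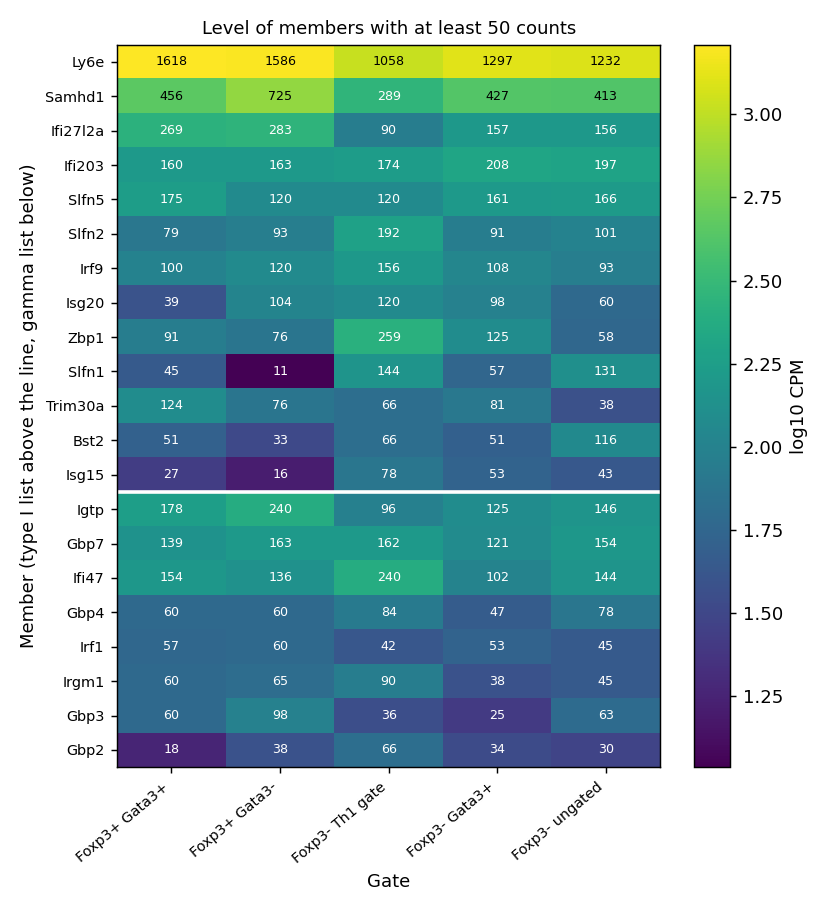
Level of the 21 members with at least 50 counts (rows, type I list above the white line and interferon gamma list below) in the 5 gates (columns); the printed value is CPM and the colour is log10 CPM. Zbp1, Slfn2 and Ifi47 stand out in the Th1 gate column (259, 192 and 240 CPM), and Ifi27l2a in both Foxp3+ columns.

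The signalling genes upstream of the members were described from a list of 17, of which 15 are in the table and 14 had at least 10 counts. Between Foxp3+ and Foxp3- cells 1 was at least 1.5-fold higher and 3 lower (median log2 ratio 0.09), against the 15.2% and 20.9% of all genes. Ifngr1, the ligand-binding chain of the interferon gamma receptor, was 1492 against 1066 CPM (0.48, 0.35 to 0.62). Socs3, an inhibitor of cytokine receptors, was 27.2 against 50.3 CPM (-0.89, -1.85 to -0.01). Ifng itself was 15.5 against 54.1 CPM (-1.80, -3.08 to -0.72). Counted at most 1 per cell, Socs3 was -0.60 (-1.73 to 0.43) and Ifng -1.33 (-3.07 to 0.08), and both intervals included 0.

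Of 46 other interferon-induced genes, 33 had at least 10 counts; 3 were higher and 5 lower in Foxp3+ cells (median -0.04), against the same 15.2% and 20.9%. Serpina3g, a protease inhibitor, was 38.9 against 12.6 CPM (log2 ratio 1.63, 0.55 to 2.76). Lower in Foxp3+ cells were Trim25, a ubiquitin ligase of RNA sensing (5.83 against 32.9 CPM, -2.50), Lgals3bp (19.4 against 55.1, -1.50), Nlrc5, which drives MHC class I genes (11.7 against 33.8, -1.54), and the chemokine Cxcl10 (11.7 against 34.8, -1.58). Ifitm3, an entry restriction factor, was -1.99 in sums and -0.43 (-2.97 to 1.63) with each cell counted at most 1; for Cxcl10 that setting gave -0.78 (-2.57 to 0.72).

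Within Foxp3+ cells, the members past 1.5-fold by Gata3 with an interval that left out 0 were Isg20, Samhd1 and Irf8. Of 6313 genes, 24.1% were at least 1.5-fold higher in Gata3+ cells and 20.1% lower. For type I members these were 5 and 2 of 14 (median log2 ratio 0.14), and for interferon gamma members 2 and 3 of 12 (median -0.09), against 0.01 over all genes. Isg20 was 39.3, 104, 120, 97.6 and 60.5 CPM by gate, lowest in Foxp3+ Gata3+ cells, with a log2 ratio of -1.40 (-2.54 to -0.31) to Foxp3+ Gata3- cells. Samhd1 was 456 against 725 CPM (-0.67, -1.01 to -0.32). With each cell counted at most 1 these were -1.09 (-2.46 to 0.24) and -0.32 (-0.83 to 0.20).

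Irf8, a transcription factor of myeloid and T cells, had 15 counts in 7 Foxp3+ Gata3+ cells and 0 in 131 Foxp3+ Gata3- cells. With 0 set to 3 counts the bound was 1.47 on the log2 scale (2.77-fold), with an exact lower limit of 0.99. Without its barcode with most counts the bound was 0.58 on the log2 scale, and with each cell counted at most 1 it was 0.39 with a lower limit of -0.30. By gate Irf8 was 45.3, 0, 24.0, 23.3 and 42.8 CPM. Between the Foxp3+ gates myeloid markers differed in the same direction, at 48.3 CPM with Gata3 (16 counts, 5 of 8 markers detected) and 0 of 8 detected without. In Th1-gated, Foxp3- Gata3+ and ungated cells these markers stood at 6.01, 106 and 229 CPM, an order across the gates that differs from that of Irf8. The part of myeloid transcripts in the Irf8 values was not tested. Among the other pathway genes only Ly6a (187 against 403 CPM, -1.11) and Tap2, a peptide transporter subunit (205 against 360, -0.81), were past 1.5-fold with an interval that left out 0. Counted at most 1 per cell, Ly6a was -1.10 (-1.86 to -0.35) and Tap2 -0.21 (-0.93 to 0.53).

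Within Foxp3- cells outside the Th1 gate, Gata3+ and ungated cells differed in Bst2, Slfn1 and Gbp3, all lower with Gata3, and in Zbp1 and Trim30a, both higher. Among 8029 genes 19.9% were at least 1.5-fold higher in Gata3+ cells and 20.9% lower. The counts were 4 and 3 of 16 type I members (median 0.08) and 2 and 3 of 13 interferon gamma members (median -0.25, against 0.02 over all genes). Log2 ratios were -1.19 for Bst2 (-1.96 to -0.44), -1.19 for Slfn1 (-1.92 to -0.50), -1.31 for Gbp3 (-2.43 to -0.26), 1.11 for Zbp1 (0.39 to 1.87) and 1.09 for Trim30a (0.20 to 2.06). With each cell counted at most 1 all 5 intervals included 0, and Zbp1 was 0.10. A single Gata3+ cell held 21 of the Zbp1 counts, and without it the ratio was 0.48. Ungated cells were also the gate with the epithelial and stromal markers given above. Without barcodes with markers of other cell types, Trim30a was 0.85 and its interval included 0, while the other 4 intervals still left out 0.

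Other pathway genes in that comparison included Cxcl10 at 57.3 CPM in Gata3+ against 12.6 in ungated cells (2.19, 0.79 to 3.92), the nuclear body protein Sp100 (0.74), the immunoproteasome subunit Psmb8 (0.59) and Epsti1 (0.59). Socs3 was lower at 29.7 against 65.5 CPM (-1.14), as was Ifitm3 with 2 against 16 counts (-3.25). Only the interval of Epsti1 (0.07 to 1.69) left out 0 with each cell counted at most 1.

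Compared with the remaining Foxp3- cells, Th1-gated cells had higher summed levels of Zbp1, Irf7, Slfn2, Irgm1 and Ifi47, and lower Ifi27l2a. With each cell counted at most 1, the intervals of Zbp1, Irf7 and Slfn2 still left out 0 and those of the other three included it. Of 8138 genes 19.4% were at least 1.5-fold higher in the Th1 gate and 25.1% lower. Among type I members 7 of 16 were higher and 2 lower (median log2 ratio 0.35, against -0.03 over all genes), and among interferon gamma members 3 of 13 were higher and 1 lower (median -0.20). Over members with at least 30 counts, the type I median was 0.12 (13 members) and the gamma median 0.26 (9 members), so the order of the lists turned.

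Zbp1, a sensor of Z-form nucleic acids that can trigger necroptosis, was 90.6, 76.3, 259, 125 and 57.9 CPM by gate. The Th1 gate was highest, and its ratio to other Foxp3- cells was 1.45 (0.88 to 2.0), from 43 counts in 19 of 119 cells against 82 counts in 42 of 599. It was 1.18 (0.32 to 2.0) with each cell counted at most 1, and between 1.18 and 2.13 over 11 alternatives, of which all 10 that give an interval left out 0.

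Irf7 was 3.02, 10.9, 60.1, 19.1 and 17.6 CPM by gate, with 10 counts in 8 Th1-gated cells (log2 ratio 1.71, 0.40 to 2.93); without its barcode with most counts the ratio was 1.39 and the interval included 0. Slfn2, needed for T cell quiescence, was 78.5, 92.6, 192, 91.3 and 101 CPM, so that 4 gates lay between 78.5 and 101 and the Th1 gate above them (1.01, 0.37 to 1.61; 0.97 with each cell counted at most 1, 0.21 to 1.69). Ifi27l2a was lower, at 90.2 against 157 CPM (-0.80, -1.67 to -0.02), but it missed 1.5-fold or had an interval that included 0 in 6 of 11 alternatives (-0.69, -1.74 to 0.22, with each cell counted at most 1). Samhd1 was 289 against 420 CPM (-0.54, -1.01 to -0.11), which is under 1.5-fold.

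Among interferon gamma members, Ifi47 was 154, 136, 240, 102 and 144 CPM by gate, with a Th1 gate ratio of 0.99 (0.43 to 1.53). Irgm1, which regulates the other immunity-related GTPases and autophagy, was 60.4, 65.4, 90.2, 38.2 and 45.4 CPM (1.12, 0.15 to 2.03). Both intervals included 0 with each cell counted at most 1 (Ifi47 0.58, Irgm1 0.79). Gbp2 was 66.1 against 32.3 CPM (1.04, -0.12 to 2.09), within counting error. Igtp lay on the other side at 96.2 against 135 CPM (-0.49, -1.34 to 0.27), also within counting error, as was Gbp6 with 0 against 18 counts (bound -0.20, upper limit 0.25).

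**Figure D4:**
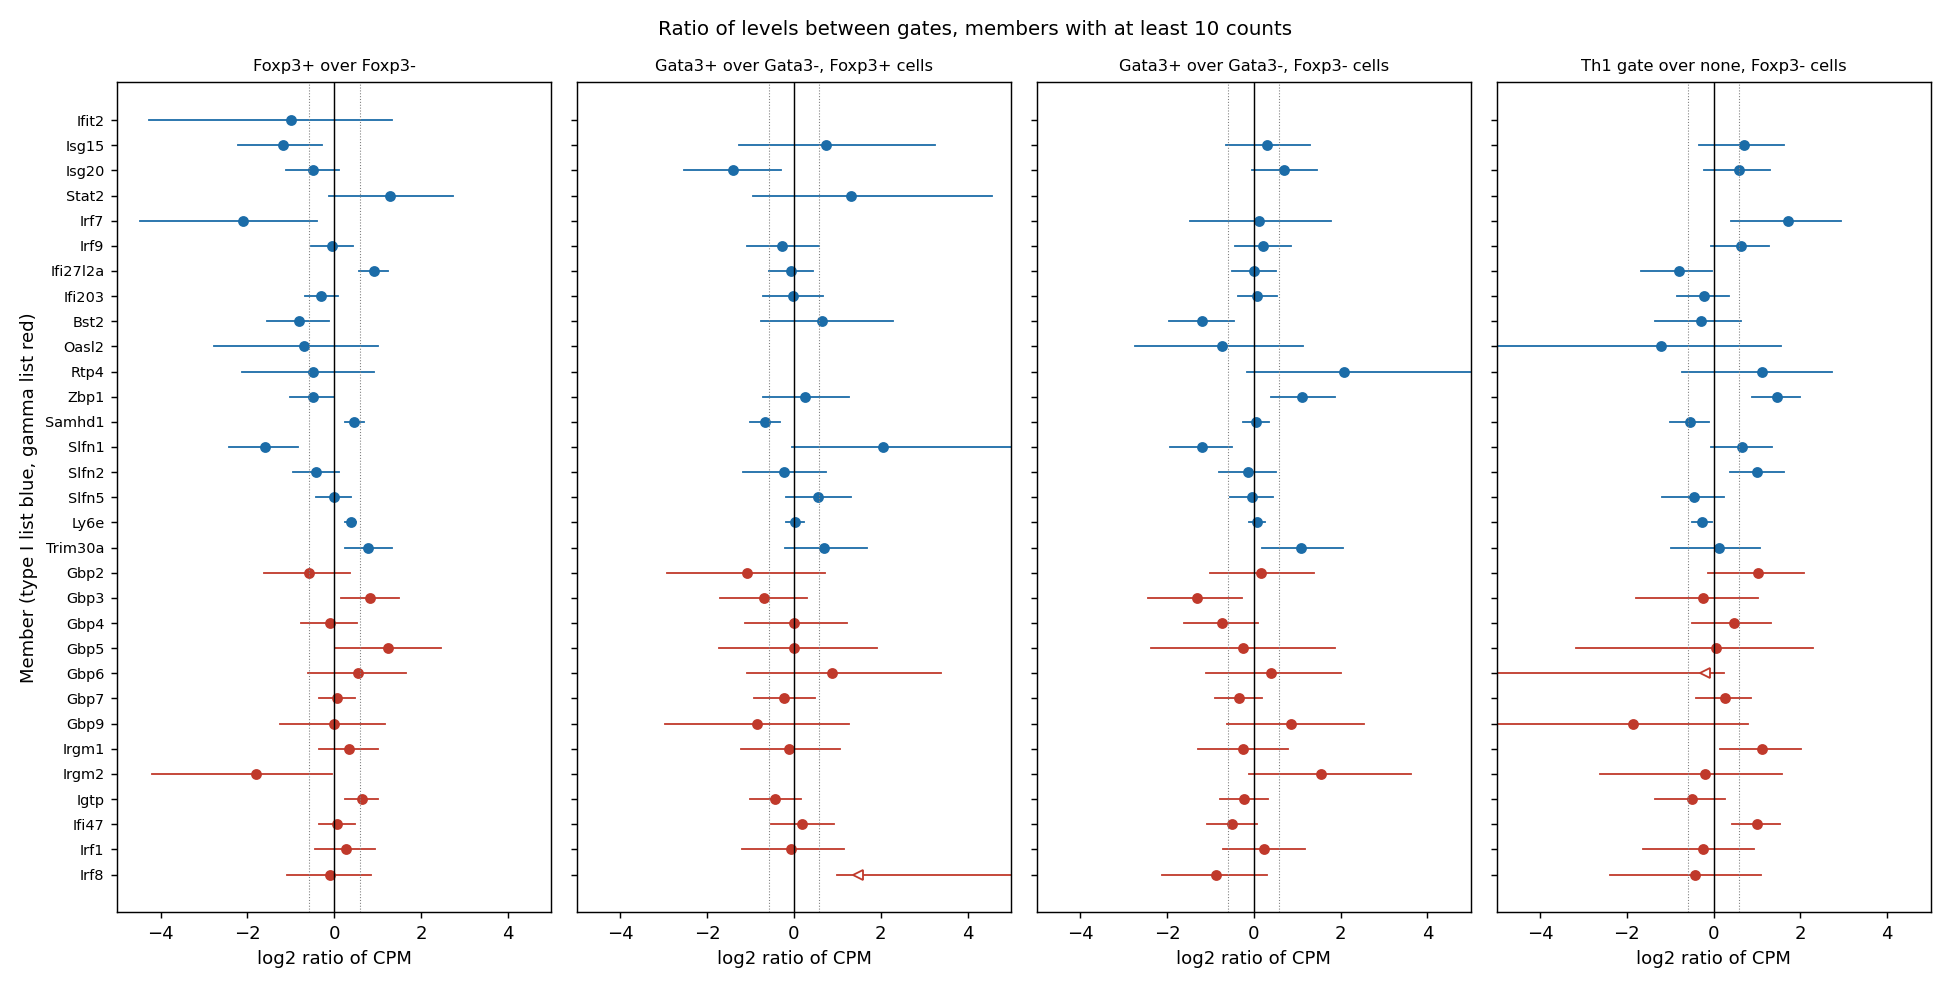
Log2 ratio of CPM (horizontal axes) for each member with at least 10 counts (rows, type I blue and interferon gamma red) in the 4 comparisons; points are ratios, lines exact 95% intervals that run to the panel edge where they go beyond it, dotted lines mark 1.5-fold, and open triangles are bounds for genes with 0 counts on a side. Zbp1 lies at 1.45 in the Th1 gate panel and Slfn1 at -1.59 in the Foxp3 panel.

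Pathway genes outside the set included more higher than lower ratios in the Th1 gate: 10 of 32 measured other interferon-induced genes were at least 1.5-fold higher and 3 lower (median 0.37), against 19.4% and 25.1% of all genes. The RNA sensor gene Ddx58 was 126 against 48.4 CPM (1.38), Epsti1 was 325 against 138 (1.23), Lgals3bp was 102 against 46.1 (1.15), the immunoproteasome subunit Psmb9 was 204 against 95.6 (1.10) and Ly6a was 379 against 185 (1.03). All of these but Ddx58 kept an interval without 0 when each cell was counted at most 1. In signalling genes, leaving out Ifng because it defined the gate, 3 of 13 were higher and 2 lower (median -0.20). Ifngr2, the signalling chain of the interferon gamma receptor, had 0 counts in 119 Th1-gated cells and 29 in 599 others. With 0 set to 3 counts its log2 ratio was -0.89, and the exact upper limit of -0.50 was short of 1.5-fold. With each cell counted at most 1 the bound was -0.41 with an upper limit of 0.02. Ifngr1 was 1046 against 1070 CPM (-0.03, -0.27 to 0.20).

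A comparison added after the data were seen took the Th1 gate within Foxp3+ cells, where 41 cells (median 2013 counts) carried Tbx21, Ifng or Nkg7 and 291 (median 1256) did not. Of 5959 genes 21.8% were at least 1.5-fold higher and 25.9% lower, against 5 and 2 of 14 type I members (median 0.20) and 4 and 5 of 11 interferon gamma members (median -0.17). Zbp1 was 172 against 69.2 CPM (1.32, 0.29 to 2.28) and Slfn2 was 160 against 69.2 CPM (1.21, 0.15 to 2.19). These cells do not overlap those of the Foxp3- comparison. Gbp4 was 123 against 48.4 (1.35), Gbp6 had 6 against 7 counts (2.19), and Stat2 had 5 against 6 (2.15). Igtp was lower at 61.6 against 226 CPM (-1.88, -3.53 to -0.60). With each cell counted at most 1 the intervals of all these genes included 0. Depth per cell differed between the sides. After every cell was thinned to 500 counts the direction of Zbp1 turned, at -0.49 (-5.93 to 2.32), while Slfn2 was 1.66 (-0.49 to 3.50) and Gbp4 1.83 (-0.35 to 3.73), all with intervals that included 0. Igtp was then at 0 counts on the Th1 gate side, with a bound of -0.76 and an upper limit of -0.38.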

How the data were processed

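Counts per barcode and gene were deposited by the authors as 1 table for 4 samples; TopHat2, SAMtools and the mm10 build are named, without roles, per the submitters' processing notes. The tool that counted reads, its annotation, any collapse of molecular identifiers and any barcode filter are unknown (not given in the sources used here). Barcodes carry no sample, so no test over samples was possible and the values of 1 sample carry no SD. The members and all gene lists were chosen with earlier results of these data known. Kept barcodes had at least 500 counts, 200 genes and under 20% mitochondrial counts. Counts were summed per gate and given as CPM with exact Poisson intervals. Shares have exact Clopper-Pearson intervals, and log2 ratios exact conditional intervals, all at 95% and for counting error only (scipy 1.17.1, checked on simulated data). A gene entered a comparison with at least 10 counts over both sides. For a bound, 0 counts were set to 3, which is not a limit of the exact interval. Values were printed by gate for members with at least 50 counts, and for members at least 1.5-fold apart with an interval that left out 0. Other pathway genes were named by the second condition, in the 4 planned comparisons only. For the Th1 gate within Foxp3+ cells only members were named. A few genes singled out after their values were seen are stated as such or serve as contrast (Ifngr1, Gbp6). Alternatives were each cell counted at most 1 per gene, thinning to 500 counts, at least 1000 counts per barcode, under 10% mitochondrial counts, no Scrublet doublets (scanpy 1.11.5), no barcodes with at least 3 counts of other cell types' markers, at least 30 counts per gene, narrower families, CPM without ribosomal and mitochondrial counts, other Th1 gates, and leaving out a member's highest barcode. Equal weight per cell, the Th1 gate without Gata3+ cells, the sums by gate without barcodes, and the Th1 gate comparison within Foxp3+ cells were added after the data were seen. Gene positions came from GENCODE vM21 and promoters from RefSeq (GRCm38.p6). The markers Epcam and Phgr1 and the genes Jak2, Tyk2 and Pyhin1 were not analysed here. Some genes of the signalling and marker lists, and results that need them, are not reported here.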

Additional observations from a re-analysis of the deposited data

Results flagged for a closer look

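Barcodes that the filters left out also held counts of the members. In these 935 barcodes (141827 counts, median 88), type I members summed to 222 counts, or 1565 CPM (1366 to 1785), against 3079 CPM in kept cells. Interferon gamma members summed to 39 counts, or 275 CPM (196 to 376), against 798 CPM in kept cells. Both levels lay above the 21.2 CPM that 3 counts give in these barcodes.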

How the results depend on the processing

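Results were recomputed under 10 to 12 alternatives for each list median, and 8 to 11 for each of 24 member results past 1.5-fold with an interval that left out 0 in the 4 planned comparisons; other printed members, and the Th1 gate within Foxp3+ cells, were recomputed only with each cell counted at most 1 and with thinning. The interferon gamma median in the Th1 gate of Foxp3- cells changed sign in 4 of 12 alternatives (-0.25 to 0.50): from -0.20 it went to 0.03 with each cell counted at most 1, to 0.50 with at least 1000 counts per barcode, to 0.26 with at least 30 counts per gene, and to 0.26 with the Th1 gate without Gata3+ cells. Of the 24 member results, 172 values held their direction and side of the threshold (by size alone with equal weight per cell, which gives no interval), 60 kept the direction but not the threshold, and 0 turned; 17 of the 60 came from counting each cell at most 1, 15 from thinning and 12 from leaving out the highest barcode. With Nkg7 left out of the Th1 gate, 4 member results held and 2 kept the direction but not the threshold. The type I median of Foxp3+ against Foxp3- cells ranged from -0.84 to -0.21 and the interferon gamma median from 0.02 to 0.35. Other medians changed sign in 3 alternatives for type I members by Gata3 in Foxp3+ cells (-0.33 to 0.38), in 1 for interferon gamma members there (-0.62 to 0.02), in 3 for type I members by Gata3 in Foxp3- cells (-0.04 to 0.31) and in 1 for type I members in the Th1 gate (-0.24 to 0.58). With at least 30 counts per gene, the members past 1.5-fold fell from 3 higher and 6 lower to 2 and 3 for type I, and from 3 and 1 to 2 and 0 for interferon gamma, in the Foxp3 comparison. By Gata3 in Foxp3+ cells they fell from 5 and 2 to 1 and 2, and from 2 and 3 to 0 and 1. By Gata3 in Foxp3- cells they went from 4 and 3 to 3 and 2, and from 2 and 3 to 0 and 2. In the Th1 gate they went from 7 and 2 to 5 and 1, and from 3 and 1 to 3 and 0. Of all genes at that minimum, 11.8% to 16.3% were higher and 12.5% to 21.2% lower over the 4 comparisons. The cause was not tested beyond the fewer genes or cells of each alternative. No paired analysis was possible because the barcodes carry no sample. Depth limits the members with under 10 counts, for which no ratio is given.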
